A study of Mus musculus with 12 samples.

Results

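The genes described here encode the subunits of the proteasome and the proteins that assemble, activate or inhibit it. They were chosen by name: every gene whose symbol starts with Psm, a letter of a to g and a number, and Pomp, with 1 probe set per gene, the brightest. The rule took 50 of the 20753 genes measured on 12 Affymetrix Mouse430_2 arrays, read by 102 probe sets. One of the 50, Psmc3ip, is a meiotic recombination factor, named as an interacting protein of the subunit Psmc3 but not itself a subunit. The proteasome degrades proteins tagged with ubiquitin. Its 20S core is a barrel of alpha and beta rings whose beta subunits Psmb5, Psmb6 and Psmb7 cut proteins, and the 19S particle at its ends recognises, unfolds and feeds in the substrate. When proteasome activity falls short, the transcription factor NRF1 (Nfe2l1) is cleaved and raises the subunit genes together. Interferon gamma raises instead Psmb8, Psmb9 and Psmb10, which replace the 3 cutting subunits in the immunoproteasome, and Psme1 and Psme2, which form the PA28 activator.

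The cells were mouse embryonic fibroblasts from embryos of 12.5 to 14.5 days. The strain label, the same for both genotypes, names the B6.129P2 and C57Bl/6 backgrounds and the targeted Ppp1r15a allele. The 4 groups of 3 arrays were compared: knockout cells (KO) treated with arsenite, untreated KO cells, wildtype cells (WT) treated with arsenite, and untreated WT cells. KO cells lacked GADD34, the product of Ppp1r15a, which restores protein synthesis after stress by directing protein phosphatase 1 to eIF2-alpha. Arsenite cells received 0.1 mM sodium arsenite, a thiol-binding agent that damages proteins, for 2 h. Both genotypes were immortalised with SV40 large T antigen, and the labels do not say how many separate cell lines stand for each genotype. Each of 3 replicate experiments held all 4 conditions.

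Values are log2 signals after RMA, and a difference of 1 is a doubling. All comparisons used limma on all genes, with a Benjamini-Hochberg adjustment across the 20753 genes and a threshold of 0.05 on the adjusted p. The targeted gene followed its labels: Ppp1r15a had log2 signals of 6.27, 6.71 and 5.88 in KO arsenite arrays, 6.42, 6.34 and 6.20 in KO untreated arrays, 12.24, 12.25 and 11.60 in WT arsenite arrays, and 8.45, 8.57 and 8.88 in WT untreated arrays. Of 9 fibroblast markers, Vim, Fn1, S100a4, Pdgfrb and Col1a1 had means of at least 11.35 in all groups, and Col3a1 lay between 10.04 and 10.69. Col1a2 was at 14.64 in KO arsenite and 14.66 in KO untreated arrays, against 10.31 in WT arsenite and 10.33 in WT untreated arrays, a log2 difference of 4.32 in both conditions (limma adjusted p = 2.09e-07 and 1.84e-07). Thy1 went the other way, at 5.23 in KO arsenite, 5.14 in KO untreated, 6.89 in WT arsenite and 7.32 in WT untreated arrays, and Pdgfra was low, at 6.46 in KO arsenite, 7.48 in KO untreated, 6.35 in WT arsenite and 6.89 in WT untreated arrays. KO and WT cells thus differed in fibroblast markers as well as in the targeted gene, and the part of this in the KO minus WT differences of the proteasome genes was not tested. The leukocyte markers Ptprc, Itgam and Adgre1 lay under the level of 5.347 that marks the dimmest 40% of array values.

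Of the 50 genes, 48 had a group mean above that dim level. The exceptions were Psma8, an alpha subunit of the testis, and Psmb11, a beta subunit of the thymus. Psmb8, Psmb9 and Psmg2 were barely above it. The others lay well above it in every group.

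**Figure D1:**
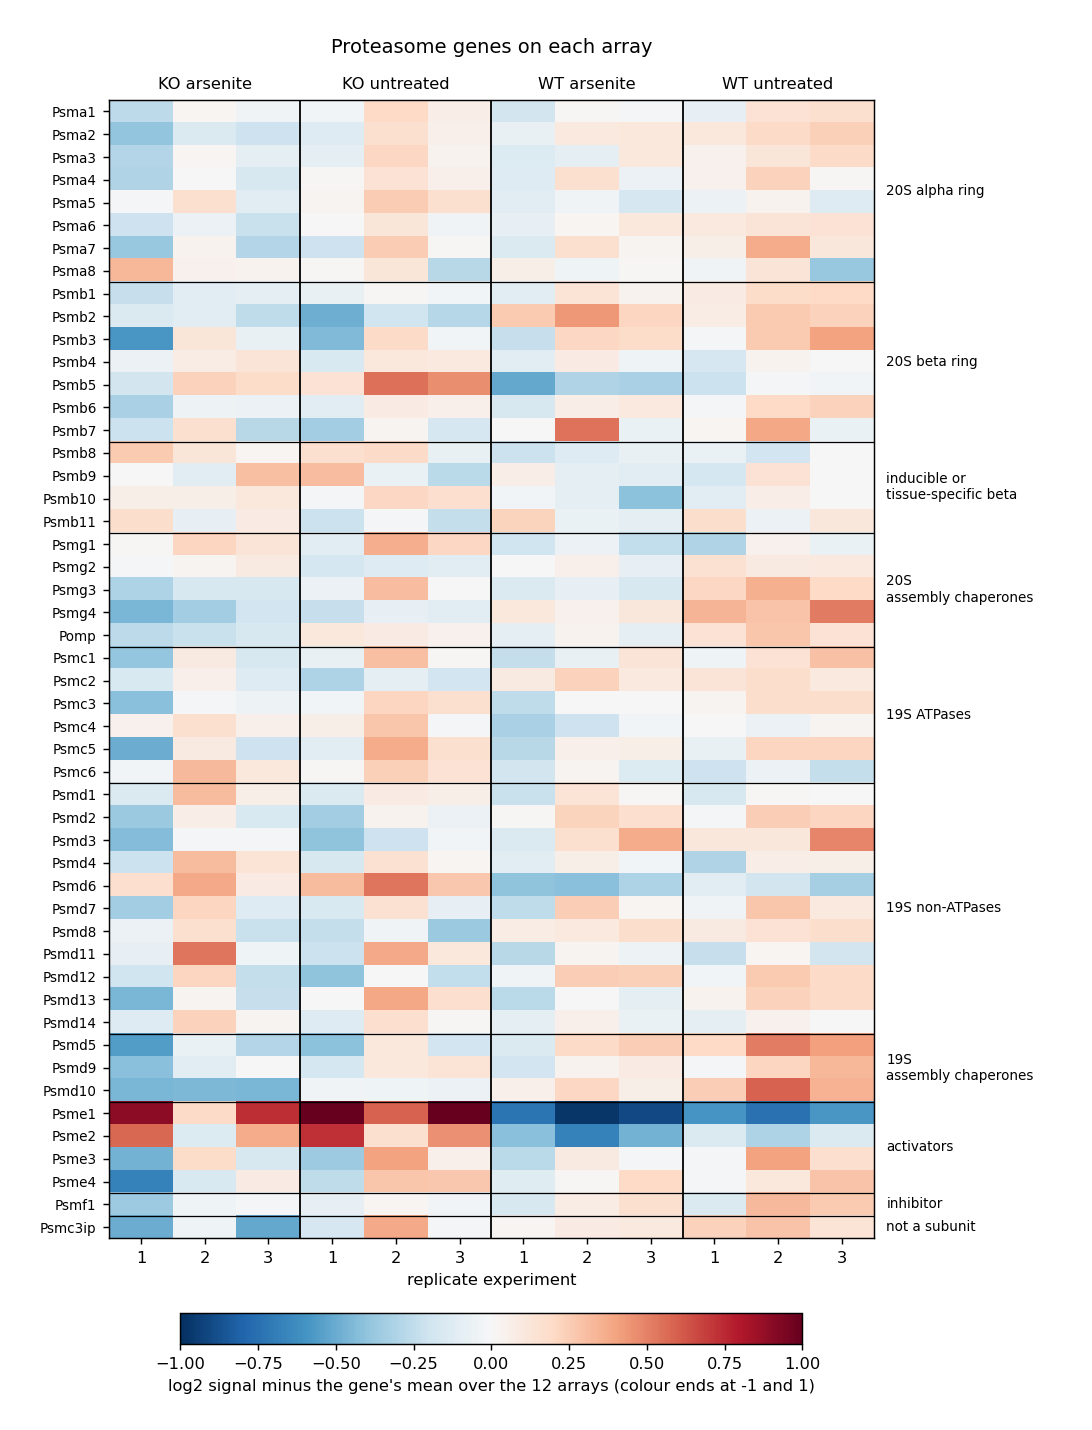
Log2 signal of each of the 50 genes on each of the 12 arrays, as the difference from the gene's mean over all arrays; rows are genes by role, columns are the 3 replicate experiments of each group. Psme1 and Psme2 stand apart between KO and WT arrays, and replicate 1 is the lowest of the 3 for the genes' median in each group.

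Arsenite for 2 h left the proteasome genes near their untreated levels in both genotypes. RNA was read from whole cultures, in which a change in all cells cannot be told apart from a larger change in some. In KO cells 2 of 50 passed the threshold and both fell, Psmd10 and Pomp, which is 4% of the genes where 7.55% of all genes passed and 3.8% fell. In WT cells 0 of 50 passed, where 2.12% of all genes did and 0.477% fell. An unadjusted limma p under 0.05 was found for 10 of the 50 in KO cells and 4 in WT cells. Over all 20753 genes the matching counts were 4391 and 2483. The median difference of the 50 genes was -0.12 in KO cells and -0.13 in WT cells, beside 0.03 and -0.01 over all genes. None of the 50 reached a doubling: the 95% interval of every gene lay below 1 on the log2 scale in each genotype, and the highest upper bounds were 0.50 in KO and 0.46 in WT cells. The lowest lower bounds were -0.78 in KO and -0.72 in WT cells. Intervals within 0.5 of 0 were found for 32 of 50 genes in KO and 37 in WT cells, so larger falls were not excluded for the rest.

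**Figure D2:**
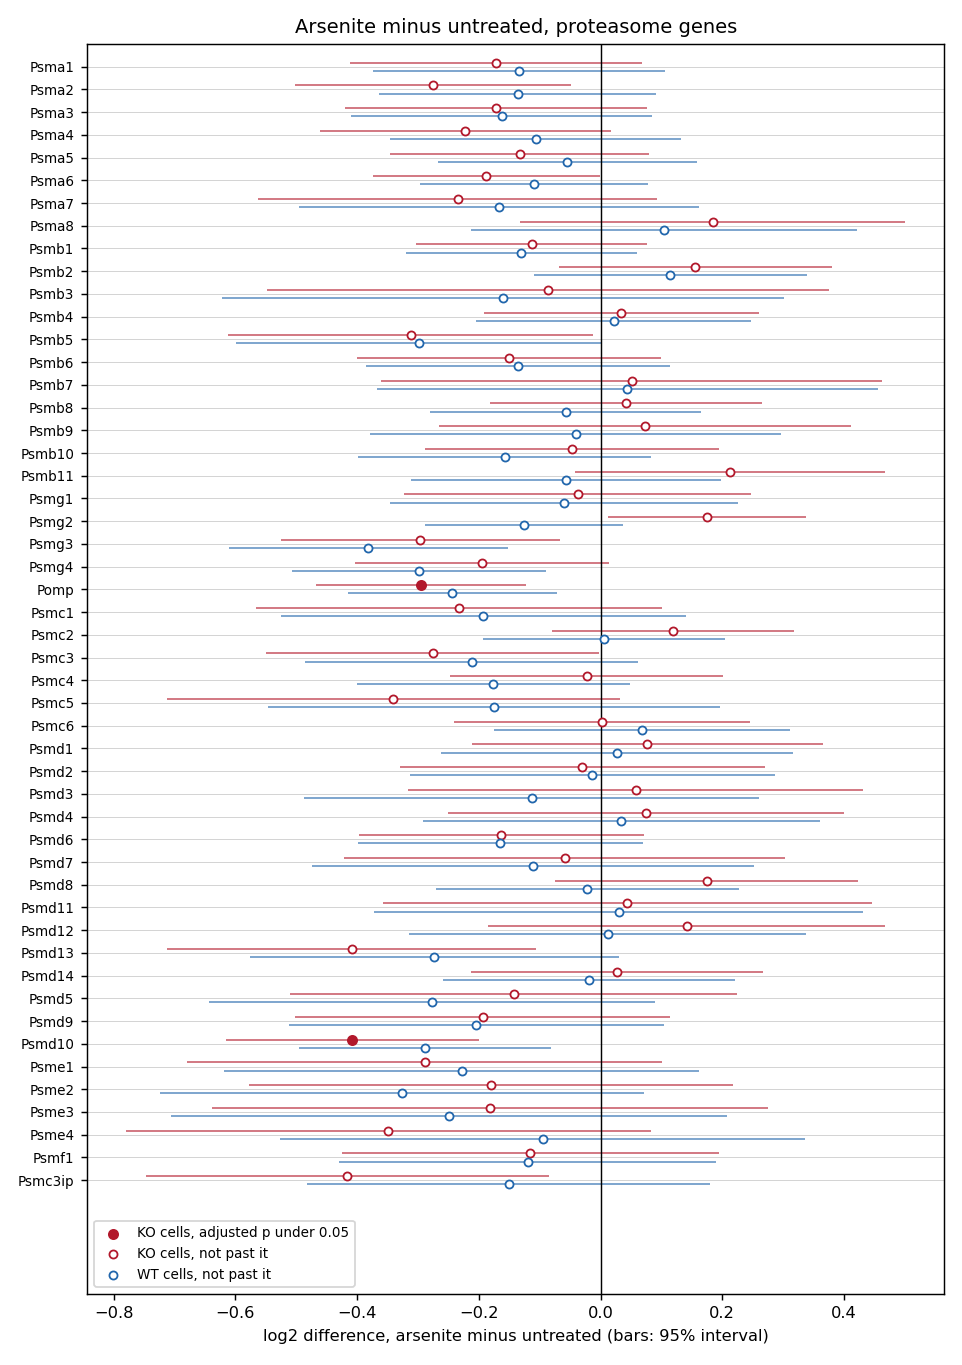
Arsenite minus untreated log2 difference with its 95% limma interval for the 50 genes, KO above WT in each row; filled points passed an adjusted p of 0.05. Most points lie left of 0 in both genotypes, and the 2 filled points are Pomp and Psmd10 in KO cells.

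The differences after arsenite leaned downward, with 33 of 50 genes below 0 in KO cells and 40 of 50 in WT cells. Over all 20753 genes, 9255 were below 0 in KO cells and 11110 in WT cells. Both genotypes, which share no array but come from the same experiments, had the same sign for 43 genes, 33 of them down. The matching count over all genes was not taken. Groups that did not overlap on any array were found for 8 genes in KO cells, 7 of them down, where 23.6% of all genes did not overlap and 9.68% did so downward. In WT cells there were 10 such genes, all down, where 20.5% of all genes did not overlap and 10.6% did so downward. The replicate experiments held all 4 conditions, and with the experiment as a block in the limma fit 9 genes fell in KO cells and 1 in WT cells, beside 14.7% and 4.88% of all genes called and 8.07% and 1.79% called down.

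Psmd10 (gankyrin) is a chaperone that helps to assemble the base of the 19S particle. Its log2 signal was 9.09, 9.10 and 9.09 in KO arsenite arrays and 9.51, 9.50 and 9.48 in KO untreated arrays. In WT cells it was 9.59, 9.75 and 9.60 under arsenite and 9.78, 10.13 and 9.89 untreated. All KO arsenite arrays lay below all KO untreated arrays, all WT arsenite arrays lay below all WT untreated arrays, and every KO array lay below every WT array. The arsenite difference was -0.41 ± 0.09 (SE, limma adjusted p = 0.0224) in KO cells and -0.29 ± 0.09 (limma adjusted p = 0.207) in WT cells. Without any one of 5 KO arrays the adjusted limma p in KO cells was 0.0592 to 0.0683.

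Pomp, the chaperone that completes the assembly of the 20S core, had log2 signals of 12.10, 12.14 and 12.20 in KO arsenite arrays and 12.47, 12.45 and 12.40 in KO untreated arrays. In WT cells the values were 12.26, 12.39 and 12.26 under arsenite and 12.51, 12.63 and 12.51 untreated. Neither genotype's arsenite arrays overlapped its untreated arrays. The difference was -0.29 ± 0.08 (limma adjusted p = 0.043) in KO cells and -0.24 ± 0.08 (limma adjusted p = 0.199) in WT cells. The KO call was lost without any one of 10 arrays, at limma adjusted p of 0.0522 to 0.138. The other chaperones of the core did not pass: Psmg3 differed by -0.30 in KO and -0.38 in WT cells, and with the experiment as a block it passed in both (limma adjusted p = 0.039 and 0.0275).

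The other 6 genes that passed in KO cells only with the block were the alpha subunit Psma2, the catalytic subunit Psmb5, the ATPases Psmc3 and Psmc5, the 19S subunit Psmd13 and the non-proteasome gene Psmc3ip. Psmd13 had the largest difference among the 19S non-ATPase subunits, -0.41 in KO and -0.27 in WT cells. Among the ATPases that unfold the substrate, Psmc5 had the largest difference in KO cells and Psmc3 in WT cells (-0.21). Its log2 signal was 11.17, 11.76 and 11.46 in KO arsenite arrays, 11.56, 12.04 and 11.83 in KO untreated arrays, 11.39, 11.72 and 11.73 in WT arsenite arrays and 11.60, 11.88 and 11.88 in WT untreated arrays. Each experiment had the lower Psmc5 value under arsenite in both genotypes, but the groups overlapped between experiments. Its difference was -0.34 ± 0.17 in KO cells (limma adjusted p = 0.28, or 0.0234 with the block) and -0.18 ± 0.17 in WT cells.

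The alpha ring moved little and mostly one way: 7 of its 8 genes were below 0 in each genotype, with medians of -0.18 in KO and -0.12 in WT cells, and 0 of 8 passed. Psma2 showed the largest difference in KO cells and Psma7 in WT cells (-0.17). The Psma2 log2 signal was 13.03, 13.28 and 13.22 in KO arsenite arrays and 13.29, 13.59 and 13.48 in KO untreated arrays, against 13.35, 13.52 and 13.53 in WT arsenite arrays and 13.53, 13.62 and 13.67 in WT untreated arrays. The KO arsenite arrays all lay below the KO untreated arrays, by 0.28 ± 0.10 on average, and limma's adjusted p was 0.147, or 0.029 with the block. By contrast, 7 of the 11 19S non-ATPase subunits were above 0 in KO cells and 4 in WT cells, with medians of 0.04 and -0.02.

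Of the catalytic subunits, Psmb5 carries the chymotrypsin-like, Psmb6 the caspase-like and Psmb7 the trypsin-like activity. Psmb5 had 11.87, 12.28 and 12.23 in KO arsenite arrays, 12.19, 12.60 and 12.51 in KO untreated arrays, 11.53, 11.74 and 11.72 in WT arsenite arrays and 11.83, 12.04 and 12.02 in WT untreated arrays. Within each experiment the arsenite value was below the untreated value in both genotypes. The difference was -0.31 ± 0.14 in KO cells (limma adjusted p = 0.218, or 0.0209 with the block) and -0.30 ± 0.14 in WT cells, where it did not pass with or without the block.

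Psmb6 differed less after arsenite. It had 12.02, 12.29 and 12.28 in KO arsenite arrays, 12.22, 12.42 and 12.39 in KO untreated arrays, 12.18, 12.40 and 12.44 in WT arsenite arrays and 12.33, 12.54 and 12.57 in WT untreated arrays. Psmb7 had 9.50, 9.87 and 9.43 in KO arsenite arrays, 9.36, 9.74 and 9.54 in KO untreated arrays, 9.71, 10.25 and 9.64 in WT arsenite arrays and 9.73, 10.10 and 9.64 in WT untreated arrays. In every group of Psmb7 replicate 2 was the highest array, and arsenite and untreated arrays overlapped. The arsenite differences were -0.15 in KO and -0.14 in WT cells for Psmb6 and 0.05 and 0.04 for Psmb7, with 95% intervals that contained 0.

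The inducible counterparts showed no call in any of the 5 comparisons. Psmb10, which replaces Psmb7, had 8.41, 8.41 and 8.46 in KO arsenite arrays, 8.34, 8.57 and 8.53 in KO untreated arrays, 8.33, 8.27 and 7.95 in WT arsenite arrays and 8.24, 8.42 and 8.36 in WT untreated arrays. Psmb8, which replaces Psmb5, had 5.89, 5.75 and 5.65 in KO arsenite arrays, 5.79, 5.82 and 5.56 in KO untreated arrays, 5.41, 5.50 and 5.55 in WT arsenite arrays and 5.57, 5.44 and 5.64 in WT untreated arrays. Psmb9, which replaces Psmb6, had 5.74, 5.63 and 6.03 in KO arsenite arrays, 6.05, 5.67 and 5.47 in KO untreated arrays, 5.80, 5.64 and 5.62 in WT arsenite arrays and 5.56, 5.89 and 5.74 in WT untreated arrays. Psmb8 and Psmb9 were close to the dim level on every array, and their groups overlapped except Psmb8 between KO and WT under arsenite. That difference was 0.27 ± 0.10, with a limma adjusted p of 0.0833, and Psmb10 differed by 0.25 ± 0.11 in the same comparison (limma adjusted p = 0.149).

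A few genes around the proteasome changed strongly with arsenite. Of 20 genes for proteasome-associated proteins, 2 rose in each genotype and 0 fell, and both were zinc-finger proteins that bind the proteasome. This is 10% of the list, where 7.55% of all genes passed in KO cells and 2.12% in WT cells. Zfand2a, which encodes the arsenite-inducible protein AIRAP, had 13.21, 14.002 and 11.91 in KO arsenite arrays and 9.77, 9.77 and 9.78 in KO untreated arrays. In WT cells it had 13.04, 13.61 and 12.62 under arsenite and 10.60, 10.78 and 10.93 untreated. The arsenite arrays were spread widely but all lay above the untreated arrays. The rise was 3.27 ± 0.41 in KO cells (limma adjusted p = 0.000666) and 2.32 ± 0.41 in WT cells (limma adjusted p = 0.011), and the difference of 0.95 ± 0.58 between the rises did not pass (limma adjusted p = 0.999).

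Zfand5, whose product stimulates degradation by the 26S proteasome, had 13.52, 13.36 and 13.07 in KO arsenite arrays, 12.00, 12.05 and 11.52 in KO untreated arrays, 13.64, 13.35 and 13.24 in WT arsenite arrays and 12.04, 12.02 and 12.27 in WT untreated arrays. The groups did not overlap in either genotype. It rose by 1.46 ± 0.17 in KO cells (limma adjusted p = 0.000396) and by 1.30 ± 0.17 in WT cells (limma adjusted p = 0.00144). Among those that did not pass, the ubiquilin Ubqln2 and the deubiquitinase Uchl5 had the largest differences in KO cells, both -0.35. Ubqln2 passed with the block, as the one gene of the list called lower (limma adjusted p = 0.0198). In WT cells the difference of Uchl5 was -0.21.

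**Figure D3:**
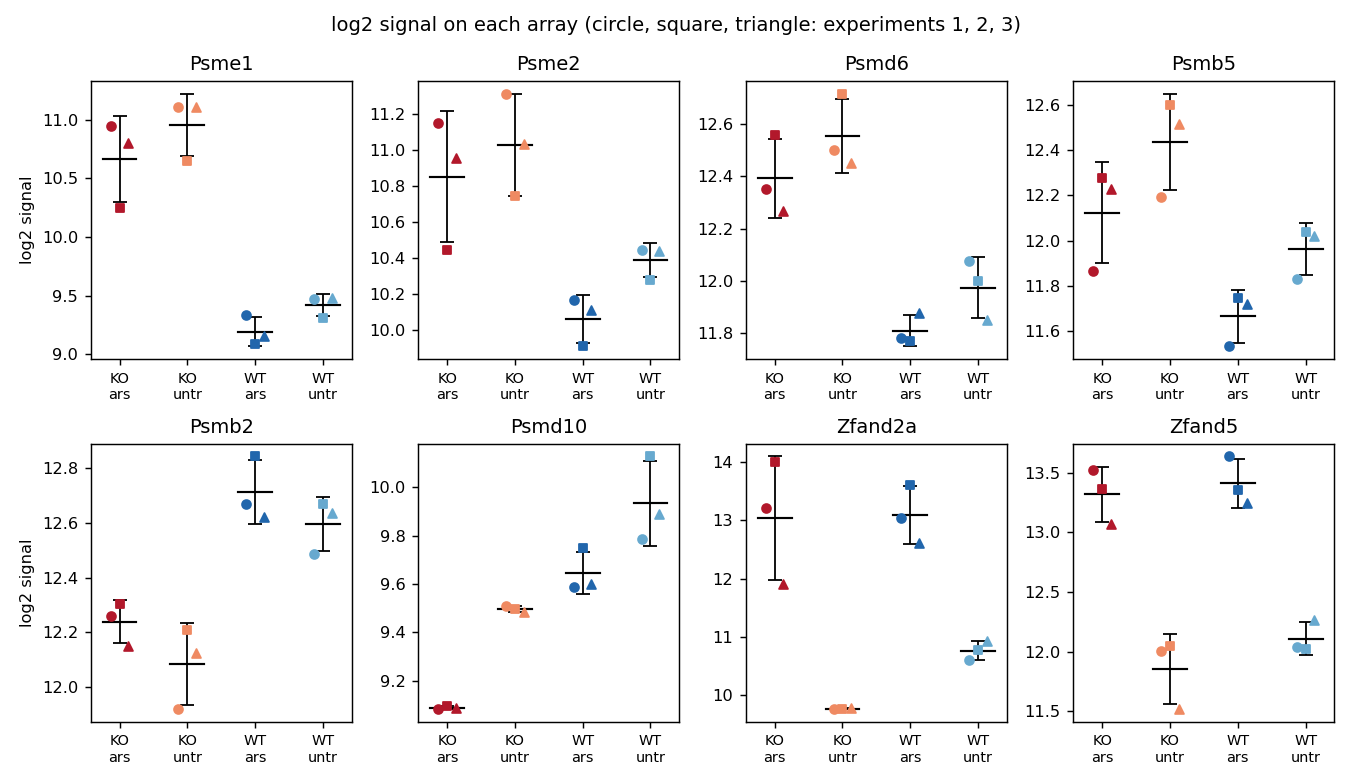
Log2 signal of 6 proteasome genes and of Zfand2a and Zfand5 on each array, for KO arsenite, KO untreated, WT arsenite and WT untreated cells, with the mean and SD of 3 arrays in black; each panel has its own axis. Psme1, Psme2, Psmd6 and Psmb5 are higher and Psmb2 and Psmd10 lower in KO cells, whereas Zfand2a and Zfand5 separate arsenite from untreated arrays.

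Among 15 genes that control proteasome transcription, 3 rose with arsenite in each genotype and 1 fell in KO cells. This is 26.7% of the list called in KO and 20% in WT cells, where 7.55% and 2.12% of all genes passed. The oxidative stress factor NRF2 (Nfe2l2) rose by 0.61 ± 0.12 in KO cells (limma adjusted p = 0.00901) and by 0.88 ± 0.12 in WT cells (limma adjusted p = 0.00209). The small Maf proteins are its DNA-binding partners. Mafk rose by 1.38 ± 0.10 in KO cells and 1.01 ± 0.10 in WT cells (limma adjusted p = 1.41e-05 and 0.00027). NRF1 itself, Nfe2l1, had 10.60, 10.33 and 10.64 in KO arsenite arrays, 10.75, 10.58 and 10.74 in KO untreated arrays, 10.96, 10.76 and 11.06 in WT arsenite arrays and 10.94, 10.77 and 11.14 in WT untreated arrays. Its arsenite differences of -0.17 in KO and -0.02 in WT cells did not pass.

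Maff was the gene of this list whose response differed between genotypes. It had 11.94, 11.79 and 11.88 in KO arsenite arrays and 8.72, 9.23 and 8.58 in KO untreated arrays, and 11.86, 11.78 and 11.89 in WT arsenite arrays and 10.66, 10.45 and 10.27 in WT untreated arrays. The arsenite arrays of both genotypes were alike, and the untreated KO arrays were the lowest. The rise was 3.03 ± 0.15 in KO and 1.39 ± 0.15 in WT cells, a difference of 1.64 ± 0.22 (limma adjusted p = 0.0319). Ddi2, the protease that cleaves NRF1, fell by 0.78 ± 0.13 in KO cells (limma adjusted p = 0.00389) and differed by -0.10 in WT cells. That difference between responses did not pass (limma adjusted p = 0.399).

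The arsenite response of the proteasome genes themselves did not differ detectably between genotypes. For the difference of responses 0 of 50 genes passed limma's threshold, where 0.0337% of all genes did. An unadjusted limma p under 0.05 was found for 1 of the 50, beside 1221 of all 20753 genes. That gene was Psmg2, whose probe set was barely above the dim level. With the block 0 of 50 again passed, where 0.0578% of all genes did. The median difference was 0.01, beside 0.03 over all genes. The intervals of this comparison were wider: 28 of 50 lay within 0.5 of 0, and the outermost bounds were -0.86 and 0.73.

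More proteasome genes passed between KO and WT cells than between arsenite and untreated cells. Under arsenite 7 of 50 passed, 4 up and 3 down, which is 14% where 21.1% of all genes passed, 10.3% up and 10.8% down. Untreated, 11 of 50 passed, 4 up and 7 down, which is 22% where 20.1% of all genes passed, 9.83% up and 10.3% down. The shares of the 50 genes were thus near those of all genes. The median was -0.09 under arsenite and -0.08 untreated, beside 0.03 and -0.01 over all genes. With the experiment as a block 17 genes passed under arsenite (6 up, 11 down) and 18 untreated (6 up, 12 down), where 30.2% of all genes passed under arsenite (15.1% up, 15% down) and 29.2% untreated (14.3% up, 14.9% down). Passing only with the block were Psmc6 and Psmg1 as higher and Psmb7, Psmd2 and Psmd3 as lower in both conditions, Psma2, Psma7, Psmc2, Psmc3ip and Psmd5 as lower under arsenite, and Psmb3 and Psmd12 as lower untreated. These comparisons share no array, but they come from the same experiments. Of the 50 genes, 44 had the same sign in both and 7 passed in both, and the matching counts over all genes were not taken.

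**Figure D4:**
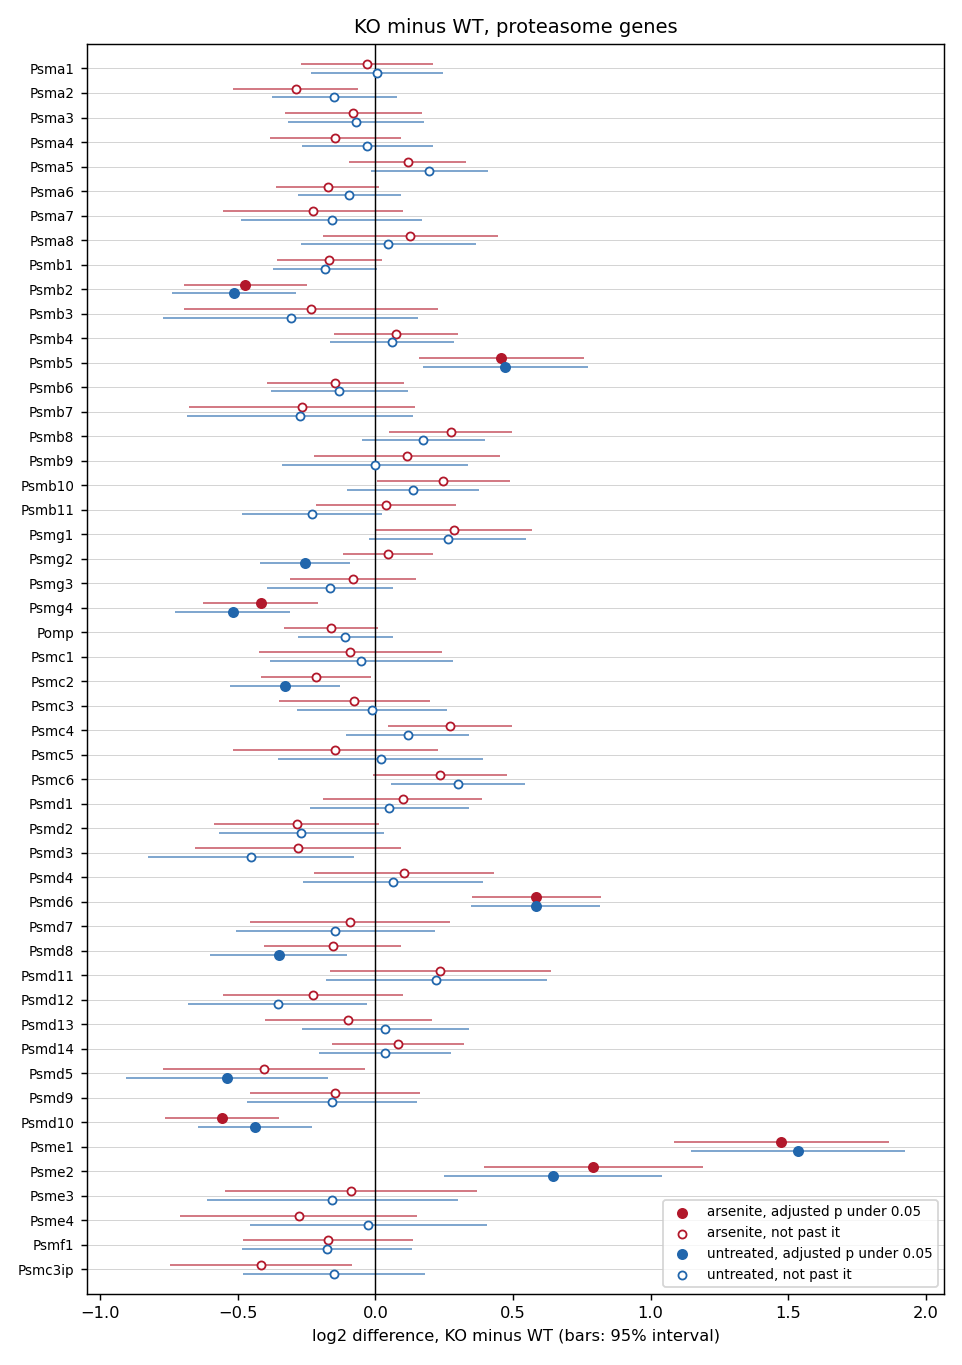
KO minus WT log2 difference with its 95% limma interval for the 50 genes, under arsenite above and untreated below in each row; filled points passed an adjusted p of 0.05. Psme1 is the farthest from 0, at 1.47 under arsenite and 1.54 untreated, and 7 genes have filled points in both comparisons.

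The 4 genes called higher were the same in both conditions. Psme1 and Psme2 encode PA28 alpha and PA28 beta, the ring that opens the 20S core for peptides. Psmd6 encodes the lid subunit Rpn7, and Psmb5 is described above. In RefSeq (GRCm38.p6) all 4 lie on chromosome 14, with Psme1 and Psme2 separated by 1 coding gene, Emc9. Their 250 bases before the annotated start are printed because these genes differed together. Capitals mark matches on either strand to TGACNNNGC (core of the antioxidant response element, bound by NRF1 and NRF2), CCAAT, GAANNTTC (heat shock element core), TTCNNNGAA (STAT site) and the core of the interferon-stimulated response element. Psme1 starts after chr14:55578244-55578493 on the plus strand, and on the minus strand Psme2 after chr14:55591102-55591351, its more distant start, Psmd6 after chr14:14120946-14121195 and Psmb5 after chr14:54617996-54618245.
Psme1: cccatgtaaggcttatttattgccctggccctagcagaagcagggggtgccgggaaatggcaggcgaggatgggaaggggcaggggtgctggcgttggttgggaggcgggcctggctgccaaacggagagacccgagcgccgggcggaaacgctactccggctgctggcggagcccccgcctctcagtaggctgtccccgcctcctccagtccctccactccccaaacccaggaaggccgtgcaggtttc
Psme2: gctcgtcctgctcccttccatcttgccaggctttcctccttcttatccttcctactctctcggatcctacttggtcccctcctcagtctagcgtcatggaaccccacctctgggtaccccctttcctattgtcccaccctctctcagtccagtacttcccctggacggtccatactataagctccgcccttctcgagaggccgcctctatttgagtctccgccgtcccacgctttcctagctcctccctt
Psmd6: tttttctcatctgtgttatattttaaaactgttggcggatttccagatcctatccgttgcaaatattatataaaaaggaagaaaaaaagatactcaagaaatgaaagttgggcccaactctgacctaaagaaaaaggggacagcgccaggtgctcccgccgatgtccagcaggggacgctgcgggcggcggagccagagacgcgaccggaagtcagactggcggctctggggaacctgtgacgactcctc
Psmb5: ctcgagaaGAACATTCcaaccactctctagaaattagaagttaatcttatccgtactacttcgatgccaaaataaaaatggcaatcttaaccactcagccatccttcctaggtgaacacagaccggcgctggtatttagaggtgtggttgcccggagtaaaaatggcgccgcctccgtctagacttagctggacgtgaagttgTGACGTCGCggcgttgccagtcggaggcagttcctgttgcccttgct

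In these 250 bases Psmb5 holds TGACGTCGC, 47 bases before the start, and GAACATTC, and the other 3 hold no match. Beyond the start, Psme1 holds TTTCGCTTTC, a minus-strand match to the interferon motif from base 10. Of 42 genes with a RefSeq promoter, 6 held TGACNNNGC in the bases from 250 before to 50 after the start, or 14.3%, beside 14.0% of all 27025 genes. CCAAT was in 35.7% of the 42 and 41.1% of all genes, GAANNTTC in 7.14% and 9.04%, and TTCNNNGAA in 7.14% and 9.55%. The interferon motif was in 5 of 42, or 11.9%, beside 3.99% of all genes, and those 5 were Psmb3, Psmd4, Psmd9, Psme1 and Psmg4. Psmb6 held TGACGGAGC 9 bases before its start and Psmd10 held 3 CCAAT boxes.

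Psme1 had the largest difference of the 50 genes. Its log2 signal was 10.95, 10.25 and 10.80 in KO arsenite arrays, against 9.33, 9.09 and 9.16 in WT arsenite arrays. Untreated, it was 11.11, 10.65 and 11.11 in KO cells, against 9.47, 9.31 and 9.48 in WT cells. All KO arrays lay above all WT arrays. Psme1 was 2.78-fold higher in KO cells under arsenite (log2 1.47 ± 0.18, limma adjusted p = 0.000135) and 2.90-fold higher untreated (1.54 ± 0.18, limma adjusted p = 0.000102).

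Psme2 followed with smaller differences. It had 11.15, 10.45 and 10.96 in KO arsenite arrays, against 10.17, 9.91 and 10.11 in WT arsenite arrays, and 11.31, 10.75 and 11.04 in KO untreated arrays, against 10.44, 10.28 and 10.44 in WT untreated arrays. The KO arrays were above the WT arrays within each condition, and replicate 2 was the lowest in every group. It was higher in KO cells by 0.79 ± 0.18 under arsenite (limma adjusted p = 0.00854) and by 0.65 ± 0.18 untreated (limma adjusted p = 0.0259). The untreated call was lost without any one of 5 untreated arrays, at limma adjusted p of 0.0563 to 0.102.

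The other activators did not pass. Psme3, which forms the nuclear PA28 gamma, differed between KO and WT cells by -0.09 under arsenite and -0.16 untreated, and Psme4, which encodes PA200, by -0.28 and -0.03. The inhibitor PI31, Psmf1, had 8.54, 8.86 and 8.89 in KO arsenite arrays, 8.82, 8.93 and 8.88 in KO untreated arrays, 8.75, 8.98 and 9.07 in WT arsenite arrays and 8.76, 9.23 and 9.17 in WT untreated arrays. Its groups overlapped, with KO minus WT differences of -0.17 under arsenite and -0.18 untreated, and its 3 dimmer probe sets gave 0.03, -0.09 and 0.11 under arsenite.

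Psmd6 had 12.35, 12.56 and 12.27 in KO arsenite arrays, against 11.78, 11.77 and 11.88 in WT arsenite arrays, and 12.50, 12.72 and 12.45 in KO untreated arrays, against 12.08, 12.00 and 11.85 in WT untreated arrays. Every KO array was above every WT array. The difference was 0.58 ± 0.11 in both conditions (limma adjusted p = 0.00228 under arsenite and 0.00236 untreated), and a second bright probe set gave 0.61 and 0.59. Psmb5 was higher in KO cells by 0.46 ± 0.14 under arsenite (limma adjusted p = 0.0335) and 0.47 ± 0.14 untreated (limma adjusted p = 0.0304). Its KO and WT arrays did not overlap within a condition. The Psmb5 call was lost without any one of 5 arrays in each condition, at limma adjusted p of 0.0588 to 0.122 under arsenite and 0.0562 to 0.112 untreated, and with arrays centred on their median (0.0979 and 0.0611).

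The genes of chromosome 14 as a whole were higher in KO cells. This was examined after the 4 calls were seen. Of 457 genes of chromosome 14 above the dim level, 44.0% were called higher in KO cells under arsenite and 45.5% untreated, against 13.6% and 12.9% of the genes of the other chromosomes. The median KO minus WT difference of chromosome 14 was 0.40 under arsenite and 0.47 untreated, and the highest of the 19 other chromosomes was 0.23 and 0.27, on chromosome 1. Without the proteasome genes the chromosome 14 medians were 0.39 and 0.46. Arsenite itself gave chromosome 14 medians of -0.02 in KO and -0.04 in WT cells. The targeted gene Ppp1r15a lies on chromosome 7.

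**Figure D5:**
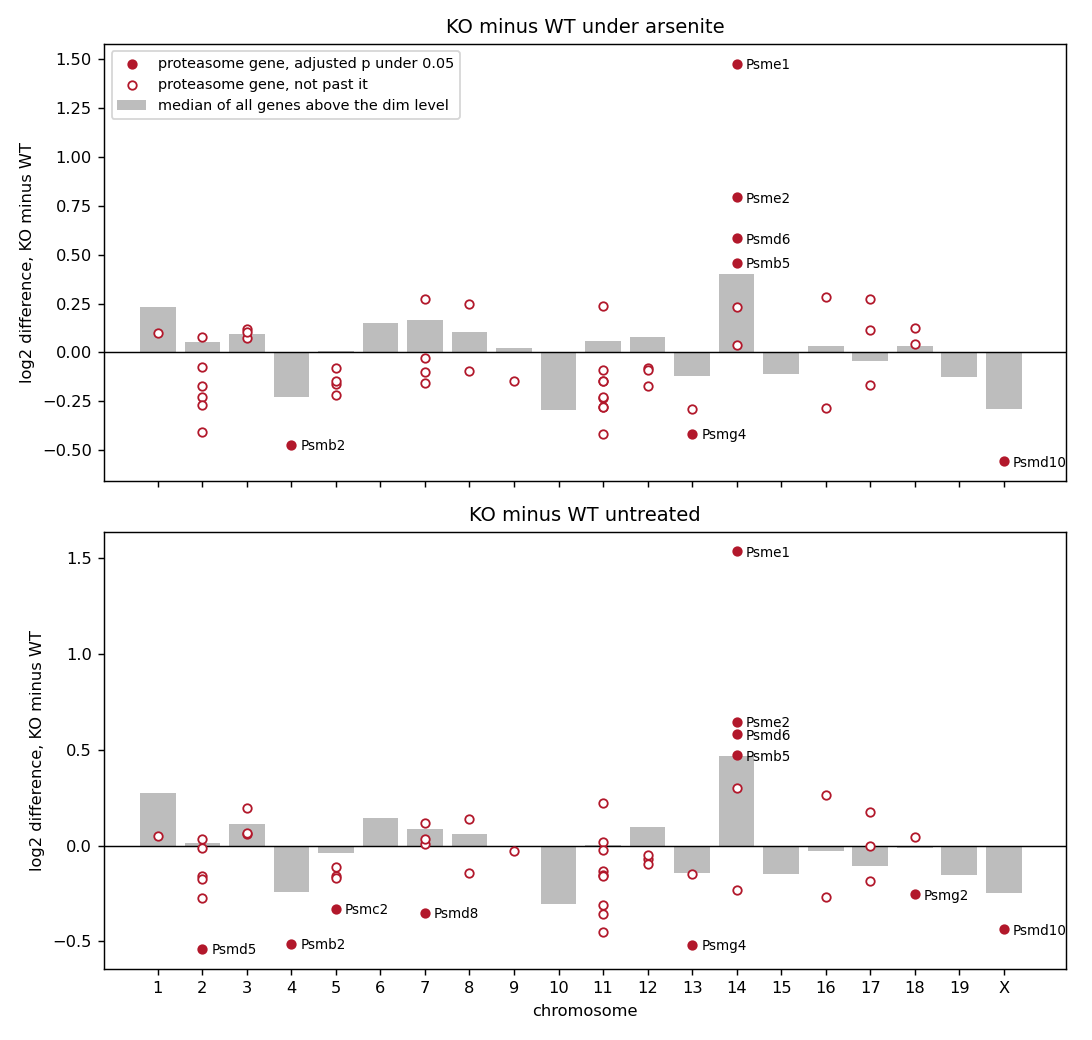
KO minus WT log2 difference of the proteasome genes by chromosome (points, filled where the adjusted limma p was under 0.05), over the median of all genes of the chromosome above the dim level (grey bars), under arsenite above and untreated below. The genes called higher all lie on chromosome 14, which has the highest grey bar in both panels.

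The 6 proteasome genes of chromosome 14 had a median KO minus WT difference of 0.52 under arsenite and 0.53 untreated, and 4 were called higher in each condition. The 44 genes elsewhere had medians of -0.15 and -0.12, with 0 called higher, 3 called lower under arsenite and 7 untreated. Psmb5, Psmd6 and Psme2 exceeded the median of the other chromosome 14 genes by 0.07, 0.20 and 0.41 under arsenite and by 0.02, 0.13 and 0.19 untreated. Psme1 exceeded it by 1.09 and 1.08, and 16 of the 457 genes had a larger difference in each condition. Psmc6, a 19S ATPase on the same chromosome, differed by 0.23 and 0.30 and passed only with the block (limma adjusted p = 0.0339 under arsenite and 0.0105 untreated), and its 2 dimmer probe sets gave 0.05 and -0.03 under arsenite. Psmb11, the remaining gene, was dim in all groups. The part of the chromosome-wide difference in these calls was not tested, and with no other KO or WT cells on the arrays it cannot be told apart from the knockout.

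Coding genes near the PA28 genes, also chosen after their values were seen, did not all follow them. Rnf31, next to Psme2, was higher in KO cells by 0.79 under arsenite (limma adjusted p = 0.00712) and differed by 0.53 untreated (0.0525, or 0.00127 with the block). The interferon factor Irf9, not a direct neighbour, was higher by 0.88 under arsenite (limma adjusted p = 0.0412), where its KO and WT arrays overlapped. Untreated, Irf9 differed by 0.79 (limma adjusted p = 0.0693, or 0.00433 with the block). Emc9, between the PA28 genes, differed by -0.22 and -0.14, and Fitm1, on the other side of Psme1, by 0.02 and 0.09, with no call. Dcaf11, also not a direct neighbour, differed by 0.28 under arsenite and 0.20 untreated and was not called either.

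Interferon gamma is known to raise PA28 together with genes of antigen processing. Of 14 genes of interferon signalling and antigen processing, 0 passed as higher and 3 passed as lower in KO cells in each condition: H2-K1, H2-D1 and Ifngr1. This is 21.4% of the list, close to the 21.1% under arsenite and 20.1% untreated of all genes called, and the median difference was -0.10 under arsenite and -0.15 untreated. With the block 1 was higher and 5 lower under arsenite, and 0 were higher and 5 lower untreated. These are 42.9% and 35.7% of the list, beside 30.2% and 29.2% of all genes. Irf9, described above, is not in this list, and a link between interferon and the PA28 differences was not tested. H2-K1, an MHC class I heavy chain, had 9.98, 9.46 and 9.74 in KO arsenite arrays, against 11.53, 11.38 and 10.77 in WT arsenite arrays, and 9.68, 9.13 and 9.53 in KO untreated arrays, against 11.37, 11.29 and 10.83 in WT untreated arrays. No KO array reached a WT array. The difference was -1.50 ± 0.22 under arsenite and -1.72 ± 0.22 untreated (limma adjusted p = 0.000627 and 0.000245). H2-D1 differed by -1.44 under arsenite and -1.85 untreated. The interferon gamma receptor Ifngr1 differed by -1.25 and -0.995, and with arsenite it fell by 0.44 in KO cells (limma adjusted p = 0.0139). Tapbp differed by -0.80 under arsenite (limma adjusted p = 0.221, or 0.0319 with the block) and -0.92 untreated (0.16, or 0.0171 with the block). Tap2, the one gene called higher with the block, differed by 0.59 under arsenite (limma adjusted p = 0.0618, or 0.0174 with the block). Also passing only with the block, as lower, were Ifngr2 under arsenite and Nlrc5 untreated.

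The 3 genes called lower under arsenite were also called lower untreated. Psmb2, a beta ring subunit without a cutting site, had 12.26, 12.31 and 12.15 in KO arsenite arrays, against 12.67, 12.84 and 12.62 in WT arsenite arrays, and 11.92, 12.21 and 12.12 in KO untreated arrays, against 12.49, 12.67 and 12.64 in WT untreated arrays. All KO arrays lay below all WT arrays. The difference was -0.47 ± 0.10 under arsenite (limma adjusted p = 0.00639) and -0.51 ± 0.10 untreated (limma adjusted p = 0.00399). Psmd10, whose values are given above, differed by -0.56 ± 0.09 under arsenite (limma adjusted p = 0.00143) and by -0.44 ± 0.09 untreated (limma adjusted p = 0.00648).

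Psmg4, a chaperone of alpha ring assembly, had 9.61, 9.72 and 9.87 in KO arsenite arrays, against 10.17, 10.11 and 10.18 in WT arsenite arrays, and 9.84, 9.99 and 9.97 in KO untreated arrays, against 10.41, 10.36 and 10.59 in WT untreated arrays. Again no KO array reached the WT arrays. It differed by -0.42 ± 0.10 under arsenite (limma adjusted p = 0.00853) and -0.52 ± 0.10 untreated (limma adjusted p = 0.00236). Averaged with its other probe set, which is below the dim level, it differed by -0.19 under arsenite and did not pass (limma adjusted p = 0.2). The chromosomes of these 3 genes also had medians below 0: under arsenite -0.23 on chromosome 4 (Psmb2), -0.29 on chromosome X (Psmd10) and -0.12 on chromosome 13 (Psmg4). Of the 11 proteasome genes called, 9 lay on the same side of 0 as the median of their chromosome in untreated cells. These 9 include the 4 genes of chromosome 14 that prompted the look at chromosomes. They also include Psmg2 and Psmc2, whose chromosomes 18 and 5 had untreated medians near 0, at -0.01 and -0.04. The matching count over all called genes was not taken.

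The other 4 calls, all lower in KO cells, were made only in untreated cells. Psmd5, the third chaperone of 19S assembly on the arrays beside Psmd9 and Psmd10, had 10.13, 10.65 and 10.35 in KO untreated arrays, against 10.74, 11.05 and 10.95 in WT untreated arrays. Under arsenite it had 9.98, 10.48 and 10.24 in KO cells, against 10.39, 10.73 and 10.79 in WT cells. The untreated groups did not overlap, and the arsenite groups did. It differed by -0.54 ± 0.17 untreated (limma adjusted p = 0.0413) and by -0.40 ± 0.17 under arsenite (limma adjusted p = 0.119, or 0.00406 with the block). The untreated call was lost without any one of 6 arrays (limma adjusted p of 0.0541 to 0.153).

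The ATPase Psmc2 had 12.75, 12.97 and 12.87 in KO untreated arrays, against 13.19, 13.23 and 13.15 in WT untreated arrays, and 12.91, 13.11 and 12.93 in KO arsenite arrays, against 13.15, 13.29 and 13.16 in WT arsenite arrays. It differed by -0.33 ± 0.09 untreated (limma adjusted p = 0.0238) and by -0.22 ± 0.09 under arsenite (limma adjusted p = 0.126, or 0.0452 with the block). The KO arrays were the lower ones in both conditions, and a second bright probe set gave -0.36 untreated and -0.29 under arsenite. The remaining one, below the dim level, gave 0.20 untreated and -0.12 under arsenite, and with the 3 averaged the untreated difference was -0.16 and did not pass (limma adjusted p = 0.143). The untreated call was lost without any one of 4 untreated arrays (limma adjusted p of 0.0614 to 0.0946).

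The lid subunit Psmd8 had 12.48, 12.69 and 12.34 in KO untreated arrays, against 12.81, 12.86 and 12.89 in WT untreated arrays, and 12.66, 12.88 and 12.50 in KO arsenite arrays, against 12.79, 12.81 and 12.90 in WT arsenite arrays. Only the untreated groups were separate. It differed by -0.35 ± 0.11 untreated (limma adjusted p = 0.0486) and by -0.16 ± 0.11 under arsenite (limma adjusted p = 0.406), and the untreated call was lost without any one of 9 arrays (0.0599 to 0.178).

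Psmg2, a partner of Psmg1 in alpha ring assembly, was read only by a dim probe set, with 5.22, 5.27 and 5.29 in KO untreated arrays, against 5.56, 5.49 and 5.50 in WT untreated arrays, and 5.39, 5.43 and 5.49 in KO arsenite arrays, against 5.40, 5.45 and 5.32 in WT arsenite arrays. Its untreated difference was -0.25 ± 0.07 (limma adjusted p = 0.0309), with the KO mean of 5.26 under the dim level, and the call was lost without any one of the 6 untreated arrays (limma adjusted p of 0.0611 to 0.0988). Both probe sets that list Psmg2 with another locus were much brighter and gave differences of 0.12 and 0.06 untreated and -0.07 and -0.03 under arsenite, without the sign of the dim one in untreated cells. For arsenite minus untreated in KO cells the dim one gave 0.17 and the brighter ones -0.30 and -0.31. In WT cells the dim one gave -0.13 and the brighter ones -0.12 and -0.22. Psmc3ip, no part of the proteasome, had 8.92, 9.37 and 8.90 in KO arsenite arrays, 9.25, 9.79 and 9.40 in KO untreated arrays, 9.43, 9.50 and 9.51 in WT arsenite arrays and 9.64, 9.70 and 9.55 in WT untreated arrays, and passed in no comparison without the block.

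Around the proteasome, 3 of the 20 associated genes were called lower in KO cells in each condition and 0 were called higher. This is 15%, below the share of all genes called, and the list's median difference was -0.12 under arsenite and -0.21 untreated. With the block 3 were higher and 4 lower under arsenite, and 2 were higher and 5 lower untreated, or 35% in each condition beside 30.2% and 29.2% of all genes. The shuttle factor Ubqln4 was the gene called higher with the block in both (limma adjusted p = 0.0247 and 0.0215). Ecpas, the ECM29 adaptor that binds 26S proteasomes, differed by -0.60 ± 0.13 under arsenite and -0.49 ± 0.13 untreated (limma adjusted p = 0.00607 and 0.0189). Vcp, the p97 unfoldase that hands substrates to the proteasome, differed by -0.44 and -0.38, and the thioredoxin-like Txnl1 by -0.25 and -0.24. Zfand2a was lower in all 3 untreated KO arrays than in the untreated WT arrays, with a difference of -0.997 ± 0.41, and did not pass (limma adjusted p = 0.12).

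Of the 15 transcriptional control genes, 1 was higher and 3 lower in KO cells under arsenite, and 1 was higher and 5 lower untreated. These are 26.7% and 40% of the list, beside 21.1% and 20.1% of all genes, with medians of -0.01 and -0.05. With the block 2 were higher and 5 lower under arsenite, and 2 were higher and 6 lower untreated, the added gene called higher being Stat3 in both (limma adjusted p = 0.00844 and 0.0129, against 0.168 and 0.206 without the block). Among them were NRF1 and enzymes that process it. Ngly1, the glycanase that acts on NRF1 and also lies on chromosome 14, was higher by 1.02 ± 0.20 under arsenite and 1.06 ± 0.20 untreated (limma adjusted p = 0.00338 and 0.00271). Ddi2 had 8.17, 8.05 and 8.51 in KO arsenite arrays, against 9.49, 9.38 and 9.40 in WT arsenite arrays, and 9.24, 8.88 and 8.95 in KO untreated arrays, against 9.62, 9.53 and 9.43 in WT untreated arrays. It was lower in KO cells in both conditions, by -1.18 ± 0.13 under arsenite (limma adjusted p = 6.71e-05) and -0.50 ± 0.13 untreated (limma adjusted p = 0.017). Ddi2 lies on chromosome 4, with median KO minus WT differences of -0.23 under arsenite and -0.24 untreated. On that chromosome 32.0% and 32.5% of genes above the dim level were called lower. The part of the chromosome-wide differences in the Ngly1 and Ddi2 calls was not tested. Nfe2l1 differed by -0.40 ± 0.13 under arsenite (limma adjusted p = 0.0403) and by -0.26 untreated (limma adjusted p = 0.187, or 0.0236 with the block). The NF-Y subunit Nfyc, which binds CCAAT boxes, was lower by -0.66 and -0.64 (limma adjusted p = 0.00256 and 0.00301). Untreated, Maff and Mafk were also lower, by -1.62 and -0.67.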

How the data were processed

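Total RNA of 12 cultures was labelled and read with Mouse430_2 arrays, per the labels' protocols and the file headers. The deposited values are log2 signals after RMA, per the submitters' processing notes, which give no version. The full table held 45101 probe sets. Control probe sets (64), those with no symbol (5654) and those listing several genes (1253) were left out. Of the other 38130, 35046 were matched to RefSeq by Entrez identifier (GRCm38.p6, used for names, chromosomes and neighbours, with the build of the files not given in the sources used here). The probe set with the highest mean stood for each of 20753 genes. Array codes were tied to groups through the authors' named mean columns (tolerance 1e-06). A shorter deposited table of 26382 probe sets puts another label on 10 of 12 arrays and served only as an alternative grouping.

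One fit of the 4 groups with limma 3.58.1 (R 4.3.3, 8 residual degrees of freedom) gave 5 two-sided comparisons, and the code was tested on simulated data. Per the design text, each of 3 experiments held all 4 conditions, so replicate numbers pair the arrays. Deviations from group means correlated at 0.231 to 0.738 for the 18 pairs of the same number and at -0.575 to -0.0106 for the 36 others. The fit with the experiment as a block (6 degrees of freedom) is therefore given where it changes a count or the call of a gene described. Whether the experiments used separate cell lines is not stated. The p-values without the block thus measure the spread between these experiments, and those with the block the spread left within them. Precision is limited by the number of arrays, whose medians lay between 5.92 and 5.96.

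The genes and lists were chosen with earlier results of these data known. Values on every array are given for up to 12 genes past the threshold, the 6 catalytic subunits and the gene with the largest difference in each class. Of other lists, up to 4 genes past the threshold and 2 not past it were named, plus Zfand2a, Nfe2l1 and Nfe2l2. A gene that this rule takes is not reported here. Paaf1 was not measured by a probe set of its own. Alternatives were the block, a mean of each gene's probe sets, no probe sets ending s_at, x_at or a_at, median centring, quantile normalisation, leaving out dim genes, the compared arrays alone, trended robust variance, leaving out each array, the shorter table's labels and a threshold of 0.01.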

Additional observations from a re-analysis of the deposited data

Results flagged for a closer look

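The arsenite response of Maff differed between genotypes by 1.64 ± 0.22 on the log2 scale, with a larger rise in KO than in WT cells (limma adjusted p = 0.0319 for the difference itself). The untreated KO arrays were the lowest for this gene. The response of the targeted gene Ppp1r15a differed by -3.43 ± 0.31 (limma adjusted p = 0.004), with a difference of -0.03 in KO cells and a rise of 3.40 in WT cells. No proteasome gene had such a difference between genotypes past the threshold.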

How the results depend on the processing

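With the replicate experiment as a block, 9 genes were called for arsenite in KO cells (2 without it), 1 in WT cells (0), 17 for KO against WT under arsenite (7) and 18 untreated (11), and the difference of responses stayed at 0. Grouped by the shorter table's labels, 0 proteasome genes and 0 of all genes were called in each comparison, against 2, 7 and 11 proteasome genes for arsenite in KO cells, KO against WT under arsenite and KO against WT untreated. The 2 calls for arsenite in KO cells became 1 without probe sets ending s_at, x_at or a_at, 1 with quantile normalisation, 0 with the compared arrays alone and 0 at a threshold of 0.01. At 0.01 the 11 untreated KO against WT calls became 5. Leaving out 1 array gave 0 to 2 calls for arsenite in KO cells, 0 to 1 in WT cells (1 without KO untreated replicate 2), 0 for the difference of responses, 6 to 8 for KO against WT under arsenite and 5 to 11 untreated. The lowest untreated counts were 5 without WT untreated replicate 2 or KO untreated replicate 3. The remaining alternatives gave 5 to 8 calls under arsenite and 8 to 11 untreated between KO and WT cells. The calls of Psme1, Psmd6 and Psmb2 between KO and WT held in both conditions under every alternative run except the shorter table's labels. Those of Psmd10 did too where it was measured, since its single probe set ends a_at and was left out with such sets. The shorter table's labels turned the sign of 4 called differences: Psmd8 for KO against WT untreated (0.10), the difference of responses of Maff (-0.36), and for Ppp1r15a the difference in WT cells (-0.16) and the difference of responses (0.97). No other alternative turned the sign of a called difference of a named gene. Genes near the dim level, such as Psmb8, Psmb9 and Psmg2, give only weak evidence of a level.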
